A study of Homo sapiens with 12 samples.

Results

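The genes described here are 51 interferon-induced antiviral effectors and sensors among the 26475 gene symbols for which RNA was counted. They were taken by name from a list that covers the IFIT, MX, OAS, IFITM, PARP and TRIM families, the ISG15 system, the cytosolic sensors of foreign nucleic acid and other interferon-induced proteins, and all 51 symbols were found in the data. The list sets no limit on a measured value, but it was drawn up with results of these libraries known, so its counts and medians describe the genes and do not test whether such genes respond as a class. RNA sequencing was done in PA-1, a human ovarian teratocarcinoma cell line, and SK-OV-3, a human ovarian adenocarcinoma cell line, treated with the vehicle DMSO or with 5 µM BAY-850, a small-molecule inhibitor of the bromodomain protein ATAD2, for 48 h. Each of the 4 groups had 3 libraries, described as biological replicates. PA-1 cells were grown in DMEM and SK-OV-3 cells in RPMI, both with fetal bovine serum, so that the line and its medium cannot be told apart, and each line stands for 1 tumour.

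Interferons are secreted by cells that sense foreign RNA or DNA, and they act on neighbouring cells through surface receptors, the kinases JAK1 and TYK2, and transcription factors that include STAT2 and IRF9. A complex with STAT2 and IRF9 binds an element called the interferon-stimulated response element in the promoters of its target genes, and a further element used in the response to interferon gamma is called the gamma-activated site. The targets block viral entry, bind or degrade viral RNA, tag proteins with ISG15 or amplify the sensing of nucleic acid, and tumour cell lines often express a part of them without added interferon.

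The promoters of the genes were searched for the letters of both elements. RefSeq promoters of GRCh38.p14, from 250 bases before to 50 bases after the start site, were matched by symbol for 39 of the 51 genes. The letters GAAA, any 2 bases and GAAA again, searched on both strands, stood in at least 1 promoter of 31 of these 39 genes (79.5%) and of 1195 of 27305 genes with a promoter (4.38%). The letters TTCNNNGAA, the core of the gamma-activated site, stood in 10 of the 39 (25.6%) and in 9.38% of all genes, and matches of both patterns can overlap, as they do in IFITM1. Each sequence below shows 1 match to the response element in capitals. They come from 4 genes with a large change in SK-OV-3 cells (IFITM1, IFI6, IFIT1 and BST2) and 4 genes with a small one (RSAD2, DDX60, TRIM14 and SAMD9), because both kinds hold it. A second match in the printed stretch of IFIT1 is left in lower case. So is the part of a second match in BST2 that extends past the marked one. Each is written 5′ to 3′ along the gene's strand, and an element on the opposite strand reads TTTC, any 2 bases and TTTC.
IFITM1, chr11:314019-314058, forward strand: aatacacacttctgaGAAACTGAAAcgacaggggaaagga
IFI6, chr1:27672283-27672322, reverse strand: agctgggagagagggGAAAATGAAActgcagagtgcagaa
IFIT1, chr10:89392492-89392531, forward strand: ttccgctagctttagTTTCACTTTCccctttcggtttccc
BST2, chr19:17405736-17405775, reverse strand: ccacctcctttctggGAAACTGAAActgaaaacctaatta
RSAD2, chr2:6877617-6877656, forward strand: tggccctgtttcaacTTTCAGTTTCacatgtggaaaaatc
DDX60, chr4:168318816-168318855, reverse strand: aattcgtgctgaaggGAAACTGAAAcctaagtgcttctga
TRIM14, chr9:98119224-98119263, reverse strand: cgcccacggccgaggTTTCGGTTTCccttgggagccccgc
SAMD9, chr7:93118091-93118130, reverse strand: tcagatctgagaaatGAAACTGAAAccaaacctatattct

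The printed element of IFITM1 begins at position -6 relative to the start site, and a second copy begins at position -40 of the same promoter. Holding more than 1 match was not particular to IFITM1. The promoters of IFI6 and IFIT5 held 3 matches each, and those of IFIT1, BST2 and DDX60 held 2 each. Nothing is read from the number of copies. The second copy of IFITM1 is given here because IFITM1 had the largest change of the 51 in SK-OV-3 cells.
IFITM1, second copy, chr11:313985-314024, forward strand: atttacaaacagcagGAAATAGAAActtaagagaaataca
The 8 genes in whose promoter windows these letters were not found are OAS1, XAF1, CMPK2, IFI35, DDX58, IFI16, HERC6 and SAMD9L. Their median log2 fold change in SK-OV-3 cells was 1.11, against 0.78 for the 31 genes with a match. The search allowed only the spacing given above. The windows of OAS1 and IFI35 hold GAAACGAAA and GAAATGAAA, which have a shorter spacing and were not counted. Other spacings were not searched for. A gene without a match may therefore still hold a response element, and nothing is read from the difference between these medians.

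The libraries held 34544505 to 51840233 counts each, which limits genes below about 1 CPM (counts scaled by the library total and edgeR's TMM factor) to few counts. Between 17425 and 18414 genes had a count in a library, except in SK-OV-3 BAY-850 replicate 3, which had the most counts and 15629 genes. Counts of calls are therefore also given without it. Ribosomal RNA genes took 7.94% to 16.9% of the counts. The pluripotency genes POU5F1, SOX2 and LIN28A were high in PA-1 cells, where the 10 pluripotency markers summed to 1387 to 1585 CPM with DMSO and to 1569 to 1667 CPM with BAY-850. TDGF1, ZFP42 and L1TD1 of the same list were low there, with means of 0.0646, 0.330 and 0.438 CPM with DMSO. In SK-OV-3 cells, where DPPA4 was at 0 in every library, the 10 markers summed to 37.0 to 41.9 CPM with DMSO and to 81.1 to 83.2 CPM with BAY-850. Most of that sum was the DNA methyltransferase gene DNMT3B, which rose from a mean of 32.1 to 72.6 CPM (log2 fold change 1.18, adjusted p = 6.89e-07, edgeR). This moved with the interferon-induced genes, and its part in the results was not tested. The 11 epithelial and Mullerian markers summed to 4934 to 5209 CPM in SK-OV-3 cells with DMSO and to 3779 to 4152 CPM with BAY-850, and their part in the results was not tested either. In PA-1 cells these 11 markers summed to 1008 to 1057 CPM with DMSO and to 1095 to 1151 CPM with BAY-850. KRT8 and KRT18 had the means of 519 and 327 CPM in PA-1 cells with DMSO. Of 15 blood and immune cell markers, only CD68 passed 1 CPM in either line, and CD3E, MS4A1, HBB and CLEC4C were at 0 in every SK-OV-3 library. The sum of these markers went from 29.8 to 30.2 CPM in SK-OV-3 controls to 40.4 to 41.4 CPM in treated cells, nearly all of it from CD68, and their part in the results was not tested.

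In SK-OV-3 cells, BAY-850 treatment increased nearly the whole set. All 51 genes passed the filter on low counts and had a positive log2 fold change, and 48 rose at an adjusted p under 0.05 (edgeR's quasi-likelihood test, Benjamini-Hochberg adjustment over 15348 genes), where 10.8% of all genes tested rose and 20.4% changed in either direction. None fell at that threshold or at an unadjusted p under 0.05 (0 genes each), and DESeq2 and limma-voom also gave 0, where 9.56% of all genes tested fell. The median log2 fold change was 0.78 in the 51 genes and -0.0091 over all genes tested. Of the 48 genes, 37 rose by at least 1.5-fold and 17 by at least 2-fold, limits for which no share over all genes was counted. The counts of the 51 genes summed to 3742 to 3939 CPM in the DMSO libraries and to 7303 to 7359 CPM in the BAY-850 libraries. For 49 of the 51, every BAY-850 library was above every DMSO library, as was the case for 19.4% of all genes tested, and SAMD9 and SAMD9L were the exceptions. For 0 genes was every BAY-850 library below every DMSO library, which held for 19.5% of all genes tested. With BAY-850 replicate 3 left out, 49 rose. Since the list was drawn up with this response known, nothing is read from these shares, and the p-values of its members are no independent evidence of a response. In RNA from whole cultures, a change in how many cells express a gene and a change in RNA per cell cannot be told apart.

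**Figure D1:**
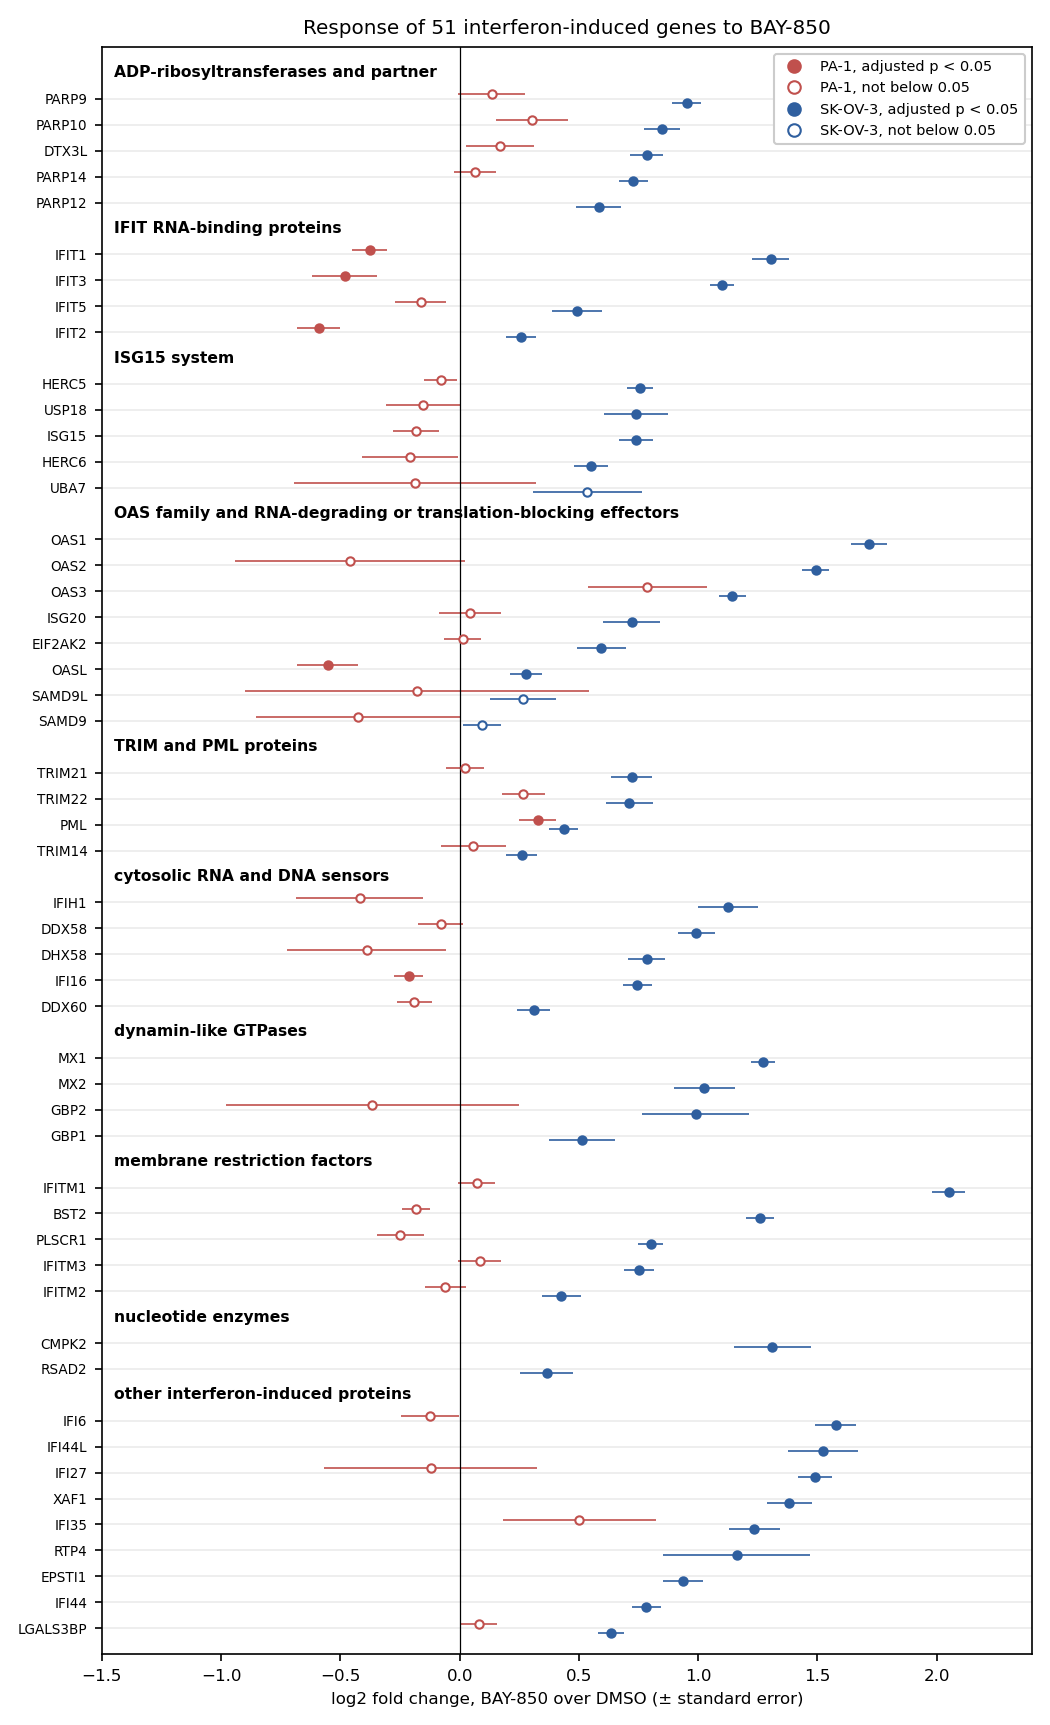
Log2 fold change of BAY-850 over DMSO (horizontal axis) with its standard error for each of the 51 genes, grouped by role, in PA-1 (red) and SK-OV-3 (blue); filled points had an adjusted p under 0.05, and genes with no red point had too few counts in PA-1. All 51 blue points lie above 0, from 0.092 for SAMD9 to 2.05 for IFITM1, while red points lie on both sides of 0.

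Among the proteins that act at membranes, IFITM1 had the largest change of the 51. IFITM1, IFITM2 and IFITM3 are small membrane proteins that hinder the fusion of viruses with the cell, and their genes lie together on chromosome 11 (chr11:307631-327537, GRCh38). IFITM1 was at 49.8, 44.0 and 42.5 CPM with DMSO and at 183, 185 and 197 CPM with BAY-850 (log2 fold change 2.05 with a standard error, SE, of 0.0702, adjusted p = 1.74e-08 by edgeR). IFITM3 was at 442, 386 and 376 CPM with DMSO and 697, 664 and 669 CPM with BAY-850 (log2 fold change 0.75, adjusted p = 9.45e-06, edgeR). IFITM2 was at 111, 93.6 and 93.8 CPM with DMSO and at 127, 126 and 147 CPM with BAY-850 (log2 fold change 0.43, adjusted p = 0.00371, edgeR). The groups did not overlap in any of the 3 genes. The 3 genes are close copies, and 42.3% of the 50-base words of the IFITM1 transcript, 20.3% of those of IFITM3 and 15.8% of those of IFITM2 also occur in other genes, so how RSEM divided reads among them is uncertain.

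BST2, which tethers budding virus particles to the cell surface, was at 173, 154 and 156 CPM with DMSO and at 391, 393 and 374 CPM after BAY-850 in SK-OV-3 cells (log2 fold change 1.26 with an SE of 0.0571, adjusted p = 9.09e-08 by edgeR). The groups were far apart. PLSCR1, a phospholipid scramblase that restricts viral entry, rose by 0.80 on the log2 scale (adjusted p = 1.53e-06, edgeR).

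The IFIT proteins bind viral RNA, and IFIT1 recognises caps that lack methylation. Their 4 genes lie side by side on chromosome 10 (chr10:89283694-89421001), yet their changes in SK-OV-3 cells ranged from 0.26 to 1.31 on the log2 scale. IFIT1 was at 65.8, 63.4 and 66.4 CPM with DMSO and at 151, 151 and 182 CPM with BAY-850 (log2 fold change 1.31 with an SE of 0.0772, adjusted p = 7.80e-07 by edgeR). IFIT3 was at 118, 112 and 114 CPM with DMSO and at 246, 238 and 253 CPM with BAY-850 (log2 fold change 1.10 with an SE of 0.0512, adjusted p = 1.05e-07 by edgeR). In both genes the treated libraries were far above the controls. IFIT5 was at 18.6, 18.4 and 17.7 CPM with DMSO and at 25.9, 22.5 and 28.6 CPM with BAY-850 (log2 fold change 0.49, adjusted p = 0.00673, edgeR). IFIT2 was at 127, 137 and 145 CPM with DMSO and at 164, 171 and 153 CPM with BAY-850 (log2 fold change 0.26 with an SE of 0.0644, adjusted p = 0.0158 by edgeR). The lowest treated library of IFIT2 was only slightly above its highest control, and its call was lost with library size only and without BAY-850 replicate 1, BAY-850 replicate 2 or DMSO replicate 2.

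OAS1, OAS2 and OAS3 make 2′-5′ oligoadenylates in the presence of double-stranded RNA, which leads to the degradation of RNA. They lie together on chromosome 12 (chr12:112906777-113011723) and all rose in SK-OV-3 cells. OAS1 was at 33.1, 33.5 and 29.4 CPM with DMSO and at 100.2, 103 and 112 CPM with BAY-850 (log2 fold change 1.72 with an SE of 0.0746, adjusted p = 7.23e-08 by edgeR). OAS2 was at 59.3, 62.0 and 63.7 CPM with DMSO and at 179, 170.1 and 172 CPM with BAY-850 (log2 fold change 1.49 with an SE of 0.0557, adjusted p = 2.68e-08 by edgeR). OAS3 rose by 1.14 on the log2 scale (adjusted p = 1.70e-07, edgeR). OASL, a relative that makes no oligoadenylate and lies elsewhere on chromosome 12, rose from 98.7 ± 6.09 to 119.7 ± 7.14 CPM (SD, n = 3), a log2 fold change of 0.28 (adjusted p = 0.0124, edgeR), and lost its call in one fit of all 12 libraries and without BAY-850 replicate 2 or DMSO replicate 2. EIF2AK2, the kinase PKR that halts translation, rose by 0.59 and the exonuclease ISG20 by 0.72. SAMD9 and SAMD9L, neighbours on chromosome 7 that block translation, did not pass the test (0.092 and 0.27, adjusted p = 0.465 and 0.205, edgeR).

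The MX proteins are dynamin-like GTPases that trap viral nucleocapsids. MX1 was at 203, 195 and 203 CPM with DMSO and at 478, 466 and 508 CPM after BAY-850 in SK-OV-3 cells (log2 fold change 1.27 with an SE of 0.0504, adjusted p = 4.05e-08 by edgeR). Its treated libraries were all above its controls by a wide margin. MX2 rose by 1.03 and the guanylate-binding proteins GBP2 and GBP1 by 0.99 and 0.51. GBP1 shares 13.3% of its 50-base words with other genes, and it kept its call when BAY-850 replicate 1 or 3 was left out but not without any other library or in one fit of all 12 libraries. GBP2 lost its call without DMSO replicate 2 (adjusted p = 0.0520, edgeR).

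Several of the largest changes were in interferon-induced proteins of less defined function. IFI6, a mitochondrial protein, was at 209, 172 and 159 CPM with DMSO and at 529, 544 and 536 CPM after BAY-850 in SK-OV-3 cells (log2 fold change 1.58 with an SE of 0.0846, adjusted p = 3.67e-07 by edgeR). Its relative IFI27 was at 258, 224 and 214 CPM with DMSO and at 659, 679 and 613 CPM with BAY-850 (log2 fold change 1.49 with an SE of 0.0707, adjusted p = 1.27e-07 by edgeR). Neither gene's groups overlapped. IFI44L was at 16.8, 18.2 and 18.2 CPM with DMSO and at 41.3, 46.4 and 65.0 CPM with BAY-850 (log2 fold change 1.52, adjusted p = 3.06e-05, edgeR), with a wide spread among the treated libraries. XAF1, a protein that promotes apoptosis, was at 17.98, 17.8 and 18.5 CPM with DMSO and at 42.2, 46.3 and 52.6 CPM with BAY-850 (log2 fold change 1.38, adjusted p = 2.08e-06, edgeR). IFI35 was at 42.8, 37.4 and 36.5 CPM with DMSO and at 97.6, 102 and 76.0 CPM with BAY-850 (log2 fold change 1.24, adjusted p = 1.52e-05, edgeR). The other 4 genes of this kind, RTP4, EPSTI1, IFI44 and LGALS3BP, rose by 0.63 to 1.16. RTP4, which had the largest of these 4 changes, lost its call in one fit of all 12 libraries and without DMSO replicate 1 or 3.

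CMPK2 and RSAD2 are neighbours on chromosome 2 that are transcribed from opposite strands. RSAD2 encodes viperin, which makes a nucleotide that ends viral RNA chains, and CMPK2 encodes a kinase that supplies its substrate. CMPK2 was at 4.53, 5.11 and 4.42 CPM with DMSO and at 13.0, 12.3 and 9.57 CPM after BAY-850 in SK-OV-3 cells (log2 fold change 1.31 with an SE of 0.163, adjusted p = 2.14e-04 by edgeR). RSAD2 rose from 18.4 ± 0.946 to 23.8 ± 3.05 CPM (SD, n = 3), a log2 fold change of 0.37 (adjusted p = 0.0383, edgeR). The call for RSAD2 was lost when any library other than BAY-850 replicate 3 was left out, in one fit of all 12 libraries, with library size only, with limma-voom and with the replicate number as a block (adjusted p = 0.0659, edgeR).

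In the ISG15 system, ISG15 is the ubiquitin-like tag, UBA7 activates it, HERC5 attaches it and USP18 removes it. ISG15, HERC5, HERC6 and USP18 rose in SK-OV-3 cells by 0.74, 0.76, 0.55 and 0.74 on the log2 scale. UBA7, at 2.93 ± 0.388 CPM in controls and 4.25 ± 0.568 CPM in treated cells (SD, n = 3), did not pass the test (0.54, adjusted p = 0.126, edgeR), although its groups did not overlap. USP18 shares 23.4% of its words with other genes, USP41 among them, and is uncertain for that reason.

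All 5 sensors rose in SK-OV-3 cells. IFIH1 (MDA5) and DDX58 (RIG-I), which detect viral RNA and signal through MAVS, rose by 1.13 and 0.99 on the log2 scale, and DHX58 (LGP2), which modulates both, rose by 0.78. IFI16, a sensor of DNA, was at 79.3, 76.7 and 78.0 CPM with DMSO and at 132, 122 and 138 CPM with BAY-850 (log2 fold change 0.74 with an SE of 0.0609, adjusted p = 9.79e-06 by edgeR). DDX60 rose by 0.31. Among the ADP-ribosyltransferases, PARP9 and its partner DTX3L, a ubiquitin ligase transcribed from the other strand of the same locus, rose by 0.95 and 0.78, PARP10 by 0.85, PARP14 by 0.73 and PARP12 by 0.58. TRIM21, TRIM22, PML and TRIM14 rose by 0.72, 0.71, 0.44 and 0.26, and TRIM14 lost its call with library size only and without BAY-850 replicate 1 or 2 or DMSO replicate 2.

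PA-1 cells gave another picture. Of the 51 genes, 39 passed the filter on low counts, and 15 of these had a positive and 24 a negative log2 fold change, with a median of -0.12 against -0.0019 over all 15212 genes tested. At an adjusted p under 0.05, 5 genes fell, where 2.48% of all genes tested fell, and 1 gene rose, where 4.65% rose and 7.13% changed in either direction. At an unadjusted p under 0.05 the counts were 8 and 3, and no share over all genes was counted at that threshold. The libraries did not overlap for 9 genes that were lower and 4 that were higher with BAY-850, where all genes tested gave 13.1% and 14.4%. The counts of the 51 genes summed to 952 to 960 CPM with DMSO and to 862 to 952 CPM with BAY-850.

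The genes that fell in PA-1 cells were IFIT2, OASL, IFIT3, IFIT1 and IFI16. IFIT2 was at 20.8, 24.3 and 21.8 CPM with DMSO and at 15.2, 15.1 and 14.1 CPM with BAY-850 (log2 fold change -0.59 with an SE of 0.0908, adjusted p = 0.00121 by edgeR). OASL was at 13.3, 15.6 and 13.0 CPM with DMSO and at 8.69, 8.68 and 11.3 CPM with BAY-850 (log2 fold change -0.55 with an SE of 0.128, adjusted p = 0.0185 by edgeR). In both genes, each treated library was below each control. IFIT3 was at 9.67, 9.29 and 9.30 CPM with DMSO and at 7.51, 5.53 and 7.18 CPM with BAY-850 (log2 fold change -0.48 with an SE of 0.137, adjusted p = 0.0468 by edgeR). IFIT1 was at 30.6, 32.2 and 29.3 CPM with DMSO and at 22.6, 24.5 and 23.8 CPM with BAY-850 (log2 fold change -0.38 with an SE of 0.0735, adjusted p = 0.00716 by edgeR). IFIT5, the remaining member of that family, was at 14.3, 13.6 and 12.4 CPM with DMSO and at 12.6, 10.96 and 12.5 CPM with BAY-850, which overlap, and did not pass the test (-0.16, adjusted p = 0.384, edgeR). IFI16 was at 95.3, 106 and 96.6 CPM with DMSO and at 86.3, 82.7 and 87.7 CPM with BAY-850 (log2 fold change -0.21 with an SE of 0.0607, adjusted p = 0.0462 by edgeR), also with no overlap.

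Across all genes in PA-1 cells, the log2 fold change rose with the GC content of each gene's longest transcript. Spearman's rho was 0.364 over 14298 genes, which are not independent and come from the same 6 libraries. Among the 39 genes it was 0.347. With each library's trend on GC content removed, IFIT1, IFIT2 and OASL were still called, IFIT3 and IFI16 were not, and BST2 was added. Leaving out DMSO replicate 2 left 1 gene that fell, IFIT2, and leaving out BAY-850 replicate 2 left 2. Leaving out BAY-850 replicate 1, DMSO replicate 1 or DMSO replicate 3 left 3 genes each. IFIT2 was the only gene of the 5 to keep its call without any one library and in all other alternatives.

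PML, the scaffold of nuclear bodies, was the gene that rose in PA-1 cells. It was at 27.1, 25.5 and 30.4 CPM with DMSO and at 33.6, 34.7 and 35.9 CPM with BAY-850 (log2 fold change 0.33 with an SE of 0.0772, adjusted p = 0.0202 by edgeR). Its groups did not overlap, but its call was lost with the GC trend removed, with scaling by library size only, and without BAY-850 replicate 2, DMSO replicate 1 or DMSO replicate 2. PML also rose in SK-OV-3 cells, from 121, 116 and 115 to 167, 162 and 147 CPM (log2 fold change 0.44, adjusted p = 4.17e-04, edgeR), and was the only gene of the 51 called higher in both lines.

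Other genes with separate groups in PA-1 cells did not pass the test. BST2 was at 229.9, 219 and 215 CPM with DMSO and at 189, 188 and 208 CPM with BAY-850 (log2 fold change -0.18, adjusted p = 0.0727, edgeR). OAS3 was at 2.01 ± 0.653 CPM in controls and 3.46 ± 0.251 CPM in treated cells (SD, n = 3) (0.79, adjusted p = 0.0696, edgeR). DDX60, PLSCR1 and IFIH1 were lower in every treated library (-0.19, -0.25 and -0.42), and PARP10 and TRIM22 were higher in every treated library (0.30 and 0.27), with adjusted p between 0.0891 and 0.371. The IFITM genes overlapped in PA-1. IFITM1 was at 20.8, 22.4 and 22.9 CPM with DMSO and at 22.5, 22.9 and 24.1 CPM with BAY-850 (0.071, adjusted p = 0.633, edgeR). IFITM3 was at 122, 115 and 127 CPM with DMSO and at 107, 132 and 147 CPM with BAY-850 (0.084, adjusted p = 0.621, edgeR). IFITM2 was at 27.5, 26.5 and 28.5 CPM with DMSO and at 23.0, 27.9 and 28.2 CPM with BAY-850 (-0.060, adjusted p = 0.723, edgeR).

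**Figure D2:**
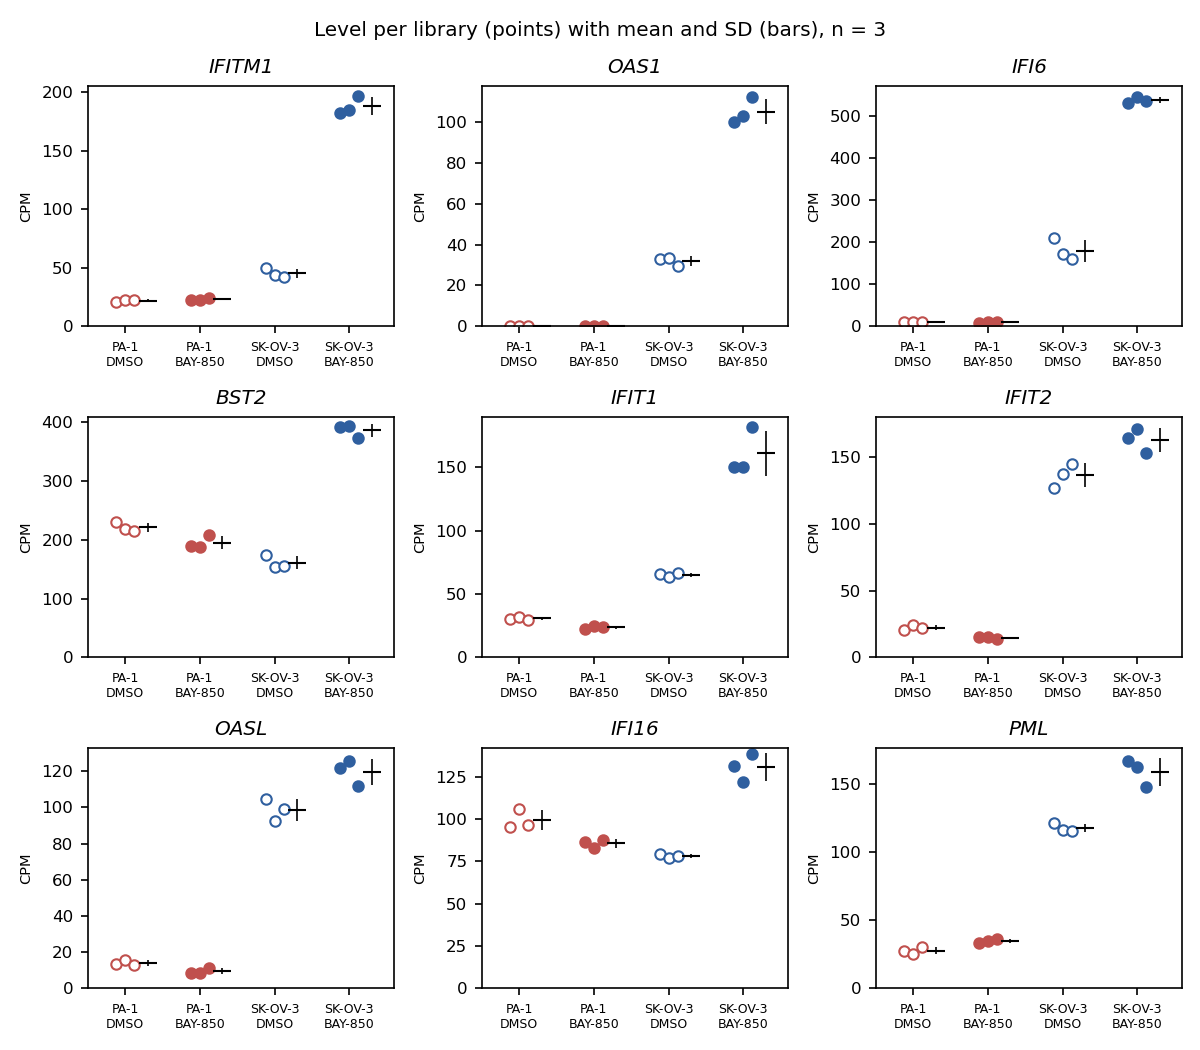
TMM-normalized CPM (vertical axis, starting at 0) of 9 genes in each library of the 4 groups, with open points for DMSO and filled points for BAY-850; bars give the mean and SD of 3 libraries, and normalization was done within each line. IFITM1 is at 42.5 to 49.8 CPM in SK-OV-3 controls and at 183 to 197 CPM in treated SK-OV-3 cells, while IFIT1, IFIT2, OASL and IFI16 are lower in treated than in control PA-1 cells.

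The difference between the 2 responses was tested with an interaction of cell line and treatment in one fit of all 12 libraries. For 36 of the 51 genes the response was higher in SK-OV-3 than in PA-1 cells at an adjusted p under 0.05 (edgeR), where 6.7% of the 16830 genes tested were called in that direction. Without SK-OV-3 BAY-850 replicate 3 there were 38 such genes. In the other direction 0 of the 51 were called, where 7.77% of all genes were, and 14.5% were called in either. At an unadjusted p under 0.05 that count was also 0 of the 51 (edgeR). The 36 include 30 of the 39 genes that could be tested in PA-1 and 6 (OAS1, XAF1, CMPK2, EPSTI1, IFI44 and IFI44L) that could not, with PA-1 levels below 0.3 CPM and differences that rest on few counts. All 5 genes that fell in PA-1 cells rose in SK-OV-3 cells, as did 48 of all 51, and all 5 were among the 36. The interaction was fitted to the same libraries, so genes called in opposite directions were likely to be called by it. Nothing further is read from this overlap.

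The smallest p-values of the interaction were those of IFITM1, BST2, IFIT1, IFIT3, IFI6 and IFI16. The log2 fold change was higher in SK-OV-3 than in PA-1 cells by 1.97 for IFITM1 (SE 0.0938, adjusted p = 4.91e-09 by edgeR) and by 1.43 for BST2 (SE 0.0833, adjusted p = 3.61e-08 by edgeR). It was higher by 1.67 for IFIT1, by 1.57 for IFIT3, by 1.69 for IFI6 and by 0.95 for IFI16, each with an adjusted p of at most 1.83e-06 (edgeR). IFI6 was at 10.6, 10.6 and 9.27 CPM in PA-1 cells with DMSO and at 8.41, 9.25 and 10.3 CPM with BAY-850, which overlap. For IFIT2 and OASL, which had small changes in SK-OV-3 cells, the difference was 0.84 and 0.82 (adjusted p = 1.11e-04 and 0.00127, edgeR). For IFIT5, IFITM3 and IFITM2 it was 0.64, 0.66 and 0.47 (adjusted p = 0.00944, 0.00289 and 0.0162, edgeR). PML had a difference of 0.097 (SE 0.101, adjusted p = 0.583 by edgeR), and OAS3 one of 0.34 (SE 0.186, adjusted p = 0.240 by edgeR).

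The lines differed in these genes before any BAY-850 was added. On one TMM scale over all 12 libraries, every SK-OV-3 DMSO library was above every PA-1 DMSO library for 48 of the 51 genes, and for 24 the mean was at least 10 times as high. The order was the opposite for BST2, at 227 ± 8.27 CPM in PA-1 and 158 ± 9.97 CPM in SK-OV-3 cells (SD, n = 3), and for IFI16, at 102 ± 5.84 and 76.5 ± 1.28 CPM. TRIM21 overlapped between the lines. These levels are a description, since the genes were listed with their levels in PA-1 in view. The share of all genes with such gaps between the lines was not counted, so whether these counts are unusual cannot be said.

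A mean under 0.1 CPM in both groups of a line was taken as near zero, and in PA-1 cells 7 genes were: MX1, MX2, GBP1, RSAD2, PARP12, RTP4 and IFI44L. PARP12, an ADP-ribosyltransferase, had no count in any PA-1 library, and RSAD2 had none in the DMSO libraries. Against a floor of 3 counts over the group, their SK-OV-3 DMSO levels were at least 835-fold and at least 693-fold higher. MX1 had 3 counts in the PA-1 DMSO libraries together and 22850 in those of SK-OV-3, a ratio of 7543 with an exact interval from 2581 to 36578 that covers counting error only. MX2, GBP1 and RTP4 had 2, 1 and 1 counts in the PA-1 DMSO libraries, and their ratios were 503 (139 to 4160), 765 (137 to 30235) and 191 (33.9 to 7588). IFI44L, at 0.0887 CPM with DMSO, lay just inside the limit, and EPSTI1, at 0.127 CPM with DMSO, just outside it. All 12 counts of IFI44L in PA-1 cells were in DMSO replicate 2, as were 20 of the 28 counts of CMPK2. The PA-1 values of these 2 genes, and their differences between the lines, therefore rest largely on 1 library. A further 5 genes (OAS1, IFI44, XAF1, CMPK2 and EPSTI1) were above the limit in a PA-1 group but had too few counts to be tested there. No gene of the 51 was below 1 CPM in SK-OV-3 cells with DMSO, whereas 18 were in PA-1 cells. The share of all genes below 1 CPM was not counted in either line.

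Levels were also divided by the length of each gene's merged exons. This length can exceed that of the transcript a cell makes, as for IFI27, with 4147 bases of merged exons and 725 bases in its longest coding transcript, so no order of the genes is drawn. On this scale BST2 was at 203, IFITM3 at 92.1 and ISG15 at 61.5 CPM per kb in PA-1 cells with DMSO. In SK-OV-3 cells IFITM3 was at 292 CPM per kb with DMSO and 488 with BAY-850, ISG15 at 209 and 345, IFI6 at 204 and 603, and BST2 at 141 and 335. IFI27 was at 54.8 and 153 CPM per kb, which its long merged exons lower.

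**Figure D3:**
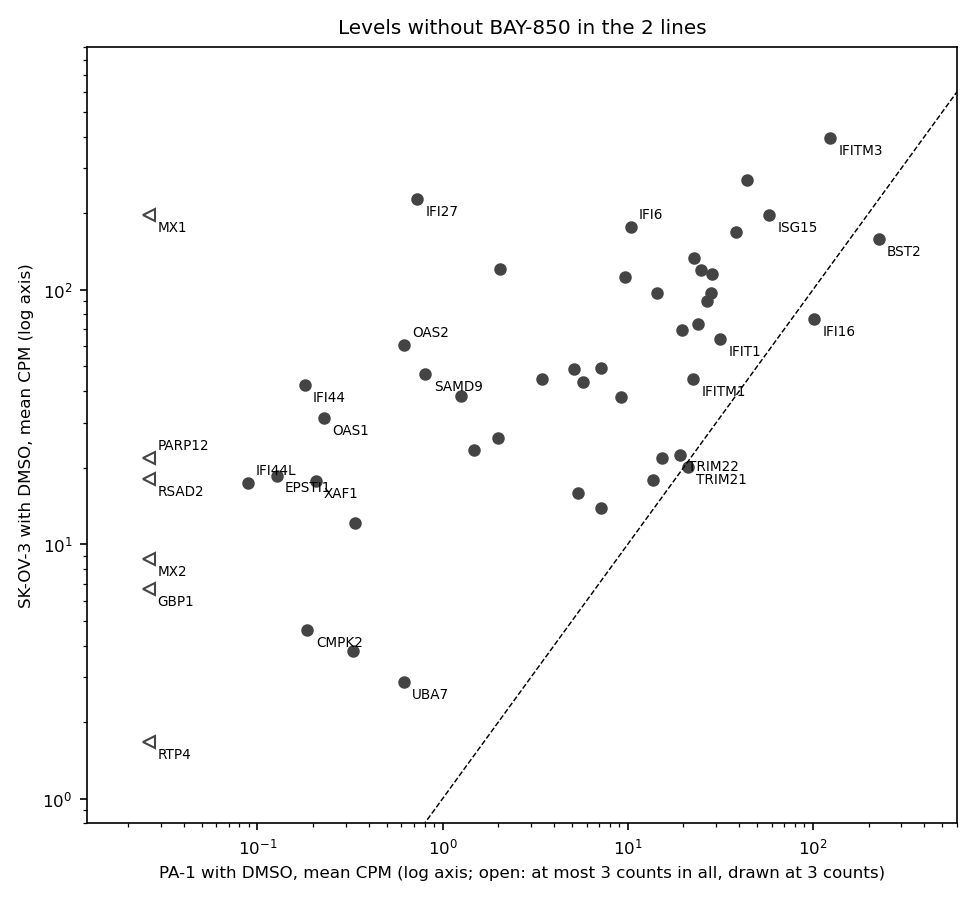
Mean CPM of each gene in PA-1 cells with DMSO (horizontal) against SK-OV-3 cells with DMSO (vertical), both on log axes and on one TMM scale over 12 libraries; the dashed line marks equal levels, and the 6 open triangles had at most 3 counts in all PA-1 DMSO libraries and are drawn at 3 counts. BST2 and IFI16 lie below the dashed line, and MX1 (3 counts in PA-1) and IFI27 (0.731 CPM in PA-1) lie far above it.

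Genes of the interferon pathway outside the list were also measured. Of 23 receptors, kinases, STATs, IRFs and inhibitors, 8 rose and 0 fell in SK-OV-3 cells, where 10.8% and 9.56% of all genes did (edgeR, all 23 tested, and 0 lower at an unadjusted p under 0.05). IRF9 and STAT2, subunits of the complex that binds the response element, were among them. IRF9 was at 44.95, 42.9 and 43.4 CPM with DMSO and at 93.7, 94.7 and 88.3 CPM with BAY-850 (log2 fold change 1.08, adjusted p = 6.26e-07, edgeR). STAT2 was at 36.8, 37.6 and 38.1 CPM with DMSO and at 66.2, 65.3 and 60.8 CPM with BAY-850 (log2 fold change 0.77, adjusted p = 1.38e-05, edgeR). IRF7, which drives the transcription of interferon genes, was at 43.8, 37.9 and 39.2 CPM with DMSO and at 99.8, 95.4 and 89.0 CPM with BAY-850 (log2 fold change 1.23, adjusted p = 9.19e-07, edgeR). IRF1 rose by 0.57 and IFNGR1, a receptor chain for interferon gamma, by 0.34. IFNAR1 and IFNAR2, the receptor of type I interferons, did not pass the test (-0.13 and 0.0073).

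In PA-1 cells, 19 of the 23 could be tested; IFNGR1 and the kinase JAK2 fell (-0.24 and -0.50), and 0 rose by edgeR at an adjusted p under 0.05, where 2.48% of all genes tested fell and 4.65% rose, with STAT3 and IRF4 higher at an unadjusted p under 0.05 (0.15 and 1.68). IRF9 and IRF7 had overlapping groups there (-0.11 and 0.085). Their responses differed between the lines by 1.17 and 1.14 (adjusted p = 8.94e-06 and 2.73e-05, edgeR), and that of IFNGR1, which moved in opposite directions, by 0.57 (adjusted p = 4.57e-04, edgeR).

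Of 14 sensor adaptors and kinases, 12 were tested in each line. In SK-OV-3 cells 4 of the 12 rose at an adjusted p under 0.05 (edgeR), where 10.8% of all genes tested rose. They were TRIM25, ADAR, TMEM173 (STING) and TICAM1, with log2 fold changes of 0.57, 0.32, 0.40 and 0.45. In PA-1 cells 2 of the 12 rose, where 4.65% of all genes tested rose. They were TRIM25, which activates RIG-I by ubiquitination, and MAVS, the adaptor of the RNA sensors (0.26 and 0.23). In both lines 0 of the 12 fell, where 9.56% of all genes fell in SK-OV-3 and 2.48% in PA-1 cells. The interferons themselves were barely measured. Of 21 interferon genes counted, 15 or 16 had no count in any library of a group, and their summed level was at most 0.648 CPM in PA-1 and 4.65 CPM in SK-OV-3 cells. IFNE and IFNL1 were tested in SK-OV-3 cells and did not pass (-0.045 and 1.37, adjusted p = 0.933 and 0.0824, edgeR). IFNL1, an interferon lambda, was at 0.643, 0.459 and 0.473 CPM with DMSO and at 0.904, 1.76 and 1.43 CPM with BAY-850, with no overlap. IFNL2 and IFNL3, close copies of each other below the filter on low counts, were also higher without overlap in SK-OV-3 cells. IFNL2 was at 0.0699 ± 0.0650 CPM in controls and 0.242 ± 0.0204 CPM in treated cells (SD, n = 3). IFNL3 had no count in the DMSO libraries and was at 0.327, 0.217 and 0.273 CPM with BAY-850. All interferon genes summed to 3.03 to 3.83 CPM with DMSO and 3.84 to 4.65 CPM with BAY-850 in SK-OV-3 cells. IFNB1 was at 0.226 CPM on average with DMSO and 0.156 CPM after BAY-850 in SK-OV-3 cells.

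**Figure D4:**
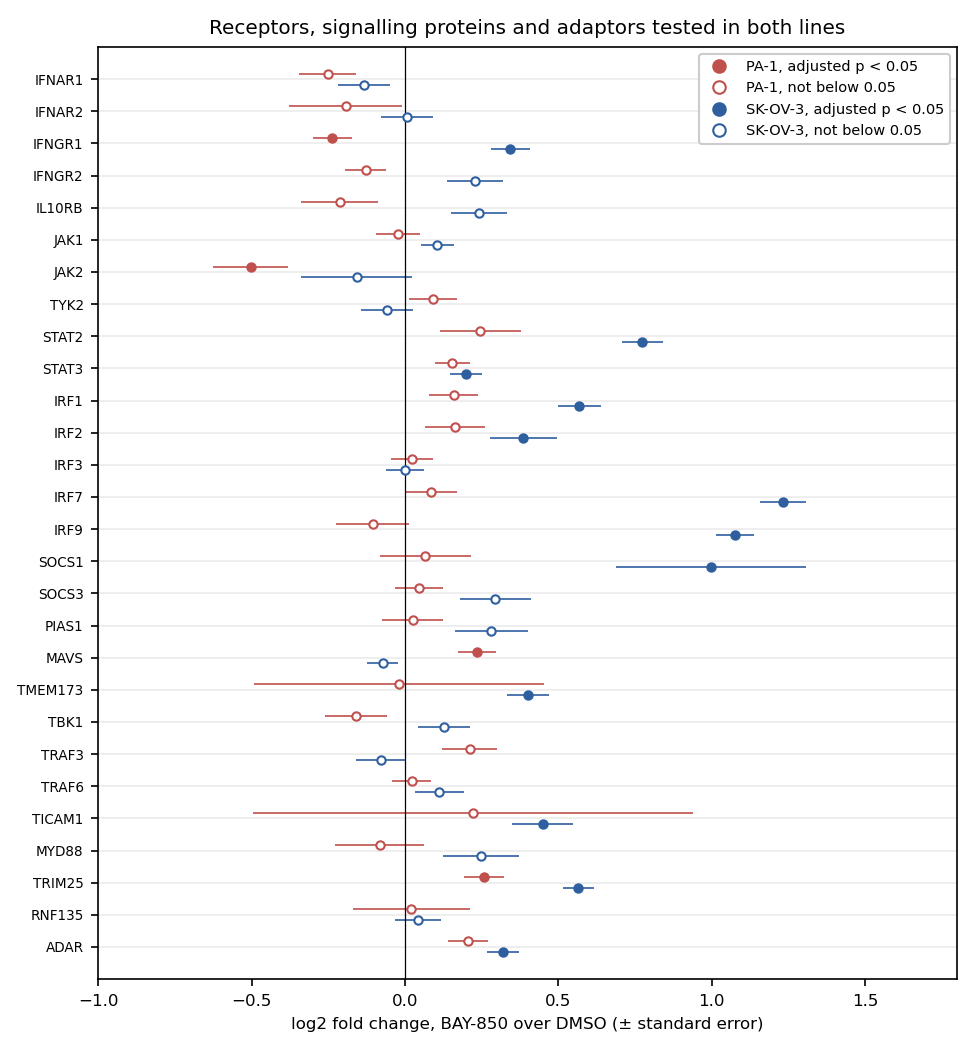
Log2 fold change of BAY-850 over DMSO with its standard error for 28 receptors, signalling proteins, transcription factors and adaptors of the interferon pathway tested in both PA-1 (red) and SK-OV-3 (blue); filled points had an adjusted p under 0.05. IRF7, IRF9, SOCS1 and STAT2 have the largest blue values, from 0.77 to 1.23, while the red points of IRF7 and IRF9 lie near 0 at 0.085 and -0.11.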

How the data were processed

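RNA was sequenced from 12 libraries of 2 cell lines. Per the labels, poly(A) RNA was captured on oligo-dT and strand was kept by dUTP; the design text instead names ribosomal RNA depletion. The deposited values are expected counts of each symbol, which the authors estimated by RSEM 1.2.15 with Bowtie2 2.1.0 on hg38 per the submitters' processing notes, without normalization. The annotation is not given in the sources used here, nor is whether counting used the strand, so overlapping pairs such as PARP9 and DTX3L or CMPK2 and RSAD2 may share reads, and RSEM divides reads that fit several genes. The expected counts were rounded, and 8.94% to 12.4% of a library's values were not whole.

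TMM factors, edgeR's filter on low counts and its quasi-likelihood test (edgeR 4.0.16, R 4.3.3) were applied within each line without a replicate term, with Benjamini-Hochberg adjustment over all genes tested. A standard error is the log2 fold change divided by the square root of F. The interaction was tested in one fit of 12 libraries. With 3 libraries against 3, the replicates' spread is all that these p-values measure, and replicates of a group differed beyond sampling noise. Replicate numbers gave no sign of pairing. Correlations of same-numbered libraries' deviations lay between -0.042 and 0.042, and those of unlike-numbered libraries between -0.079 and 0.083. With 3 libraries per group these cannot exclude pairing, so a fit with the replicate number as a block is also given.

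The genes and lists were chosen with earlier results of these data known. Some pathway genes are not reported here and are left out of the counts over lists. Values of every library are given for the 12 largest changes per line among called genes without overlap, the 6 smallest interaction p-values and the IFIT and IFITM families; at most 8 other called pathway genes per line were named by smallest p, and further genes by fold change. Fuller values of BST2, OAS3, STAT3 and IRF4 in PA-1, of PML, OASL, RSAD2 and UBA7 in SK-OV-3, of IRF9, IRF7 and STAT2, of TICAM1, IFNAR1 and IFNAR2, of DNMT3B and of the interferon genes were chosen after their values were seen. Positions, lengths and GC contents come from GENCODE on GRCh38, matched by symbol for 23900 of 26475 symbols, and promoters from RefSeq. Alternatives were RLE factors, library size with and without ribosomal RNA genes, DESeq2 1.42.0, limma-voom (limma 3.58.1), 2 other filters, a replicate block, one fit of 12 libraries, removal of GC trends (loess, span 0.5), and leaving out each library. On simulated counts, edgeR found 59.7% and 58.1% of 1.5-fold changes in PA-1 and SK-OV-3 and 40.9% for the interaction.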

Additional observations from a re-analysis of the deposited data

Results flagged for a closer look

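The responses of 36 of the 51 genes differed between PA-1 and SK-OV-3 cells by the interaction test. Of these, 6 (OAS1, XAF1, CMPK2, EPSTI1, IFI44 and IFI44L) were below the filter on low counts in PA-1. These 6 entered the fit of 12 libraries through their levels in SK-OV-3 cells, and all 6 lost the call with limma-voom. The log2 fold change in SK-OV-3 cells exceeded that in PA-1 cells by 1.97 for IFITM1, 1.43 for BST2, 1.67 for IFIT1, 1.57 for IFIT3, 1.69 for IFI6 and 0.95 for IFI16. The excess was 0.84 for IFIT2, 0.64 for IFIT5, 0.82 for OASL, 0.47 for IFITM2 and 0.66 for IFITM3. Among the transcription factors it was 1.17 for IRF9 and 1.14 for IRF7. Groups of 3 libraries are too small for a test of single libraries that stand apart.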

How the results depend on the processing

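In SK-OV-3 cells, 42 to 49 genes rose in every setting tried and 0 fell, and 41 of the 48 kept their call in all of them; the other 7 were GBP1, GBP2, IFIT2, OASL, RSAD2, RTP4 and TRIM14. The interaction was called for 27 genes with limma-voom and for 31 to 38 in the other settings. The calls lost with limma-voom were those of the 6 genes below the PA-1 filter and of IFI27, PARP10 and USP18. With 1 library left out, IFI44L kept its interaction call in 6 of 12 fits, and XAF1 and IFI44 in 7. The median log2 fold change stayed between -0.18 and -0.081 in PA-1 and between 0.76 and 0.83 in SK-OV-3. In PA-1 cells, IFIT2 kept its call in all settings, and the other 5 calls were each lost without at least 1 library. The number called lower, 5 in the main analysis, was 3 with library size only and 1 to 6 with 1 library left out, where the 6 without BAY-850 replicate 3 include BST2 and ISG15 and not IFIT3. Of the genes that rose, 1 in the main analysis, 2 were called with all 12 libraries in one fit, with at least 10 counts in every library and with no filter on low counts, the second being OAS3, 0 with the GC trend removed or with library size only, and 0 to 2 with 1 library left out. BST2 was called lower in PA-1 with DESeq2, the GC trend removed, library size without ribosomal RNA genes, no filter, and without BAY-850 replicate 3. With 1 library left out, the uncalled log2 fold changes of IFITM2 and IFITM3 in PA-1 changed sign, ranging from -0.11 to 0.027 (positive without BAY-850 replicate 1) and from -0.021 to 0.20 (negative without BAY-850 replicate 3). With the replicate number as a block, 4 genes fell and 1 rose in PA-1, 47 rose in SK-OV-3 and 34 differed between the lines. The cause of these changes was not tested. Depth limits genes below 1 CPM, which include 18 of the 51 in PA-1 cells with DMSO.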
